A study of Mus musculus with 8 samples.

Results

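The genes described here make and load MHC class I molecules, and they were 10 named members among the 24369 gene symbols of the deposited count table. They were chosen by name for their role and not by their values: the heavy chain genes H2-K1 and H2-D1, the light chain gene B2m, the transporter and loading genes Tap1, Tap2 and Tapbp, the immunoproteasome genes Psmb8 and Psmb9, the peptide-trimming gene Erap1 and the transcriptional regulator Nlrc5. All 10 members were found in the table and all 10 passed the filter on low counts, which left 11394 genes for testing. RNA was sequenced from conventional dendritic cells that had been sorted out of tumours grown from MC38, a murine colon carcinoma line, engineered to carry enhanced green fluorescent protein (EGFP). All mice were labelled WT and no drug is given for any library. Sorted cells of the cDC1 and cDC2 subsets were each split by their green signal, so that EGFP-positive cells are those in which tumour-derived fluorescence was seen. The 4 groups, with 2 libraries each, were EGFP-positive cDC1, EGFP-negative cDC1, EGFP-positive cDC2 and EGFP-negative cDC2, 8 libraries in all. The labels give the tissue as tumour and the cell type as colon cancer, and the subset comes from the titles. Nothing in the labels ties a replicate to its own animal, so each p-value reflects the spread among these libraries alone, and that spread may be technical. Same-numbered replicates of the 4 groups share a code in their titles, and the labels do not say what it marks.

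Class I molecules display peptides from inside the cell to CD8 T cells. Proteasomes cut proteins into peptides, the TAP transporter carries these into the endoplasmic reticulum, Erap1 trims them there, and tapasin (from Tapbp) helps to load them onto a heavy chain paired with beta-2 microglobulin (from B2m). Interferon-gamma switches on most of these genes, and Nlrc5 acts on class I promoters as their dedicated transactivator. Dendritic cells also place peptides of engulfed material on class I, a route called cross-presentation for which cDC1 are best known.

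Library totals lay between 17869441 and 22195681 counts, of which the ribosomal RNA precursor Rn45s took 19.4% to 35.6%. The spread was wide, with a biological coefficient of variation of 1.13, and the EGFP-positive cDC1 replicates were the least alike (Pearson r = 0.63 across genes on log2(CPM + 1), against 0.85 to 0.90 in the other groups). The summed level of 9 cDC1 marker genes was 1876 to 3895 CPM in cDC1 and 139 to 406 CPM in cDC2. That of 8 cDC2 marker genes was 32.9 to 396 CPM in cDC1 and 895 to 947 CPM in cDC2. In cDC2 the largest means on this second list were Itgam (324 CPM), Sirpa (254) and Klf4 (151). Over both fractions its 7 tested genes were all lower in cDC1. Among EGFP-negative cells 5 were lower and 2 higher in cDC1. The higher ones were Mgl2, averaging 132 CPM in cDC1 and 108 in cDC2, and Clec10a, averaging 45.0 and 31.1. Of 4 genes shared by conventional dendritic cells, Flt3 stood at 67.2 to 208 CPM in cDC1 and at 0 to 10.8 CPM in cDC2, Zbtb46 at 10.1 to 37.1 CPM in cDC1 and at 0 to 1.04 CPM in cDC2, and Dpp4 at 48.0 to 184 CPM in cDC1 and at 0 to 5.66 CPM in cDC2. The fourth, Itgax, overlapped, at 8.05 to 83.03 CPM in cDC1 and 51.9 to 82.6 CPM in cDC2. The summed level of 13 macrophage and monocyte marker genes was 390 and 11596 CPM in EGFP-positive cDC1, 2109 and 2624 CPM in EGFP-negative cDC1, 36442 and 19277 CPM in EGFP-positive cDC2 and 39742 and 31676 CPM in EGFP-negative cDC2. Libraries labelled cDC2 thus held little Flt3, Zbtb46 and Dpp4, Itgax within the cDC1 range, and a macrophage marker sum above that of every cDC1 library, and the name is used below as the label gives it. In the cDC1 against cDC2 contrast all 13 of those marker genes had negative log2 fold changes and 2 passed the test, C1qa (-9.85 ± 0.83, edgeR adjusted p = 0.00109) and Pf4 (-11.59 ± 0.54, edgeR adjusted p = 2.2e-05).

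Set per kilobase of exon, the scale on which levels of different genes can be compared, B2m was the most abundant member in every group, with means of 7544 CPM per kilobase in EGFP-positive cDC1, 6154 in EGFP-negative cDC1, 15581 in EGFP-positive cDC2 and 14925 in EGFP-negative cDC2. H2-K1 had the next mean in all 4 groups. It was 798 CPM per kilobase in EGFP-positive cDC1, 500.1 in EGFP-negative cDC1, 941 in EGFP-positive cDC2 and 1186 in EGFP-negative cDC2. In EGFP-negative cDC1 Psmb8 was level with it, at 496 (402 and 590 in its libraries, against 442 and 558 for H2-K1). Lengths cover every annotated exon base, 2938 for H2-K1 and 3381 for Psmb8, while their longest transcripts have 1874 and 1907. An order this close depends on the length used. Erap1 (3.15 to 7.28 CPM per kilobase) and Nlrc5 (0.300 to 2.597) were the lowest members in each group. Levels below are CPM, read counts relative to library size after TMM scaling, for comparison of 1 gene between libraries, and groups with n = 4 combine both fractions or both subsets. In bulk samples such as these, fewer cells of a type and less RNA per cell cannot be told apart.

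**Figure D1:**
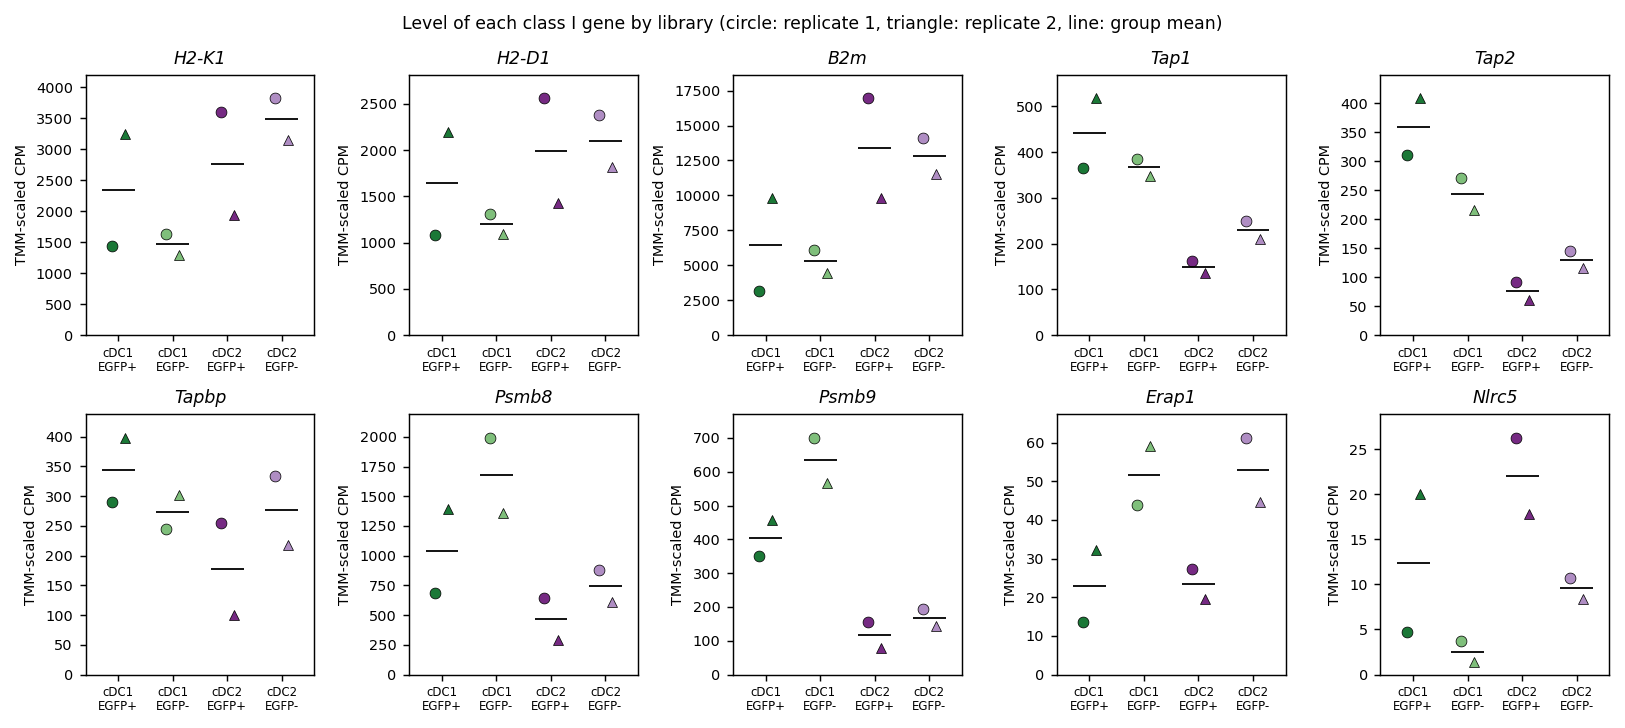
TMM-scaled CPM of each member (y axis, linear, from 0) in the 8 libraries, with the 4 groups along the x axis and a line at each group mean of 2 libraries. For Tap1, Tap2 and Psmb9 each cDC1 library lies above each cDC2 library, for B2m each lies below, and for Erap1 the EGFP-positive libraries lie below the EGFP-negative ones.

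The subsets were compared first, over both fractions with 4 libraries a side. Among the members the direction differed by step: Psmb8, Psmb9, Tap1 and Tap2 had their higher means in cDC1, and H2-K1, H2-D1 and B2m had theirs in cDC2. This did not extend to all genes of these steps. The inducible subunit gene Psmb10 averaged 154 CPM in cDC1 and 168 in cDC2, and the class I chain gene H2-T23 averaged 483 and 415. By edgeR's quasi-likelihood test with Benjamini-Hochberg adjustment over all 11394 genes, 1 of 10 members was higher in cDC1 and 0 were lower, where 0.816% of all genes tested were higher and 0.5% lower. That member was Psmb9. DESeq2 called 1160 of the 11394 genes, with Tap1, Tap2, Psmb8 and Psmb9 among them. The fit by voom with library quality weights called 846, with these members and B2m. On leaving out each library in turn, 50 to 277 genes of the table passed (263 and 277 without replicates 1 and 2 of EGFP-positive cDC1, 50 to 88 without any other single library), and 0 to 2 members, B2m joining Psmb9 without replicate 2 of EGFP-positive cDC1. At an unadjusted p under 0.05 there were 5 of 10 members, 4 higher and 1 lower in cDC1, against 13.5% of all genes in either direction. The members' median log2 fold change was 0.22, beside -0.28 for all genes tested, with 5 members on either side of 0.

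The heavy chains H2-K1 and H2-D1 encode the polymorphic peptide-binding subunits. H2-K1 stood at 1444 and 3246 CPM in EGFP-positive cDC1, 1639 and 1299 CPM in EGFP-negative cDC1, 3595 and 1934 CPM in EGFP-positive cDC2 and 3822 and 3150 CPM in EGFP-negative cDC2. H2-D1 stood at 1085 and 2199 CPM in EGFP-positive cDC1, 1306 and 1091 CPM in EGFP-negative cDC1, 2559 and 1429 CPM in EGFP-positive cDC2 and 2373 and 1817 CPM in EGFP-negative cDC2. Both chains were high in the same libraries, and their cDC1 and cDC2 values overlapped through replicate 2 of EGFP-positive cDC1, which was the highest cDC1 library for both. Over both fractions H2-K1 averaged 1907 ± 903 CPM in cDC1 and 3125 ± 842 CPM in cDC2 (SD, n = 4 each), a log2 fold change of -0.74 ± 0.37 and not past the threshold (edgeR adjusted p = 0.412). H2-D1 averaged 1420 ± 529 CPM in cDC1 and 2044 ± 518 CPM in cDC2 (SD, n = 4 each), at -0.54 ± 0.32 (edgeR adjusted p = 0.523). Among EGFP-negative cells alone both chains were lower in cDC1 without overlap, as were 26.5% of all genes tested. The log2 fold change there was -1.25 ± 0.47 for H2-K1 (edgeR adjusted p = 0.468) and -0.81 ± 0.43 for H2-D1 (edgeR adjusted p = 0.604).

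H2-K1 and H2-D1 also had the most similar profiles of any pair of members: after centring each gene on its own mean, their log2(CPM + 1) values differed by a root mean square of 0.17 over the 8 libraries. The sequence before their starts is shown because both are class I heavy chain promoters with a nearly shared stretch, 177 of 203 aligned bases being identical (87.2%). The windows are the 250 bases before the start of each gene in RefSeq for GRCm38.p6, H2-K1 at chr17:34000334-34000583 on the minus strand (its second listed start) and H2-D1 at chr17:35262844-35263093 on the plus strand. The H2-D1 window lies within the bounds that GENCODE M21 gives the gene, chr17:35262730-35267499. Capitals mark matches on either strand to CCAAT and to an NF-kB type motif, GGG then any base then ATTCCC.

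H2-K1: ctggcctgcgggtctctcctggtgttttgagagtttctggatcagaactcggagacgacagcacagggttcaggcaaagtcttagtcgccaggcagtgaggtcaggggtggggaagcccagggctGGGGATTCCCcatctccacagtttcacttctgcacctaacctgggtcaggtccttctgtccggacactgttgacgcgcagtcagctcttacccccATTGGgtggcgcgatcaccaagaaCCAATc
H2-D1: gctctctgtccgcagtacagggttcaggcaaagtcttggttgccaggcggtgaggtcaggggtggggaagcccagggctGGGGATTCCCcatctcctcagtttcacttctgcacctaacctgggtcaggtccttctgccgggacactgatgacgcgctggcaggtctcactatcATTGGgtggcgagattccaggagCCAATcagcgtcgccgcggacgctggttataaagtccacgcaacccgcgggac

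The NF-kB type motif lay at -125 to -116 in H2-K1 and at -171 to -162 in H2-D1, counted back from the start, and was present in 0.152% of 32851 windows of the same length. Both windows also held TGACGC, a CRE-like element of the class I upstream module, found in 6.12% of windows, at -55 to -50 in H2-K1 and at -101 to -96 in H2-D1. CCAAT was met in 33.8% of windows on either strand. A match of letters is a description and was not tested for binding. H2-K1 and H2-D1 shared 8.11% and 14.3% of their 50-base words with transcripts of other genes, so reads could be split between class I genes in counting. Of 24 further class I chain genes, 11 had 0 counts in all 8 libraries. Among those with a matched transcript the shared part ran from 0% (H2-M9) to 35.8% (H2-T22), and H2-T10, at 31.6%, had 428 counts over the 8 libraries.

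B2m, the light chain common to all class I molecules, stood at 3187 and 9788 CPM in EGFP-positive cDC1, 6109 and 4475 CPM in EGFP-negative cDC1, 16954 and 9845 CPM in EGFP-positive cDC2 and 14117 and 11554 CPM in EGFP-negative cDC2. The 4 cDC1 libraries were all below the 4 cDC2 libraries, with the highest cDC1 library just under the lowest cDC2 library. No overlap of this kind, lower in cDC1, was found for 8.56% of all genes tested, and B2m was the only member with it. It averaged 5890 ± 2861 CPM in cDC1 and 13117 ± 3102 CPM in cDC2 (SD, n = 4 each), a log2 fold change of -1.16 ± 0.37 with a 95% interval of -1.98 to -0.34, not past the threshold (edgeR adjusted p = 0.208). The macrophage marker sum separated the subsets as well, at 390 to 11596 CPM in cDC1 and 19277 to 39742 CPM in cDC2. Within groups its order was that of B2m in all but EGFP-negative cDC1, where 6109 CPM of B2m stood beside 2109 CPM of markers and 4475 CPM beside 2624 CPM. This order was not particular to B2m. H2-K1, H2-D1, Tap1, Tap2, Psmb8, Psmb9 and Nlrc5 had the same order of replicates within each group as B2m. Tapbp and Erap1 had the order of the markers in every group. The part of these markers in the B2m difference was not tested. The B2m window at chr2:122147437-122147686 on the plus strand (RefSeq, GRCm38.p6) is shown because it alone among the members' windows matched 1 strict string. That string, GAAA then any 2 bases then GAAA, stands for the core of an interferon-stimulated response element and was present in 2.98% of windows. Elements with other letters were not searched for, so their absence from the other windows is not shown. Capitals mark that core, at -139 to -130, and CCAAT on the opposite strand.

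B2m: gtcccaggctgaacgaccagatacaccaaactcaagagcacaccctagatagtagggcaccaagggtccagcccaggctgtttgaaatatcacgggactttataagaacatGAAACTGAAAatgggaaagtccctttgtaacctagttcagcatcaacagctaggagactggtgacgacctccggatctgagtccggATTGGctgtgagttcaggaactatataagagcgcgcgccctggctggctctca

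Transport and loading came next. Tap1 and Tap2 encode both subunits of the peptide transporter of the endoplasmic reticulum. Tap1 stood at 366 and 518 CPM in EGFP-positive cDC1, 385 and 348 CPM in EGFP-negative cDC1, 162 and 136 CPM in EGFP-positive cDC2 and 249 and 211 CPM in EGFP-negative cDC2. Tap2 stood at 311 and 408 CPM in EGFP-positive cDC1, 271 and 215 CPM in EGFP-negative cDC1, 92.3 and 60.6 CPM in EGFP-positive cDC2 and 145 and 115 CPM in EGFP-negative cDC2. For both genes the 4 cDC1 libraries were above the 4 cDC2 libraries and EGFP-positive cDC2 were lowest; with Psmb9 they were the 3 of 10 members with this pattern, which 3.96% of all genes tested showed. Tap2 averaged 301 ± 81.4 CPM in cDC1 and 103 ± 35.7 CPM in cDC2 (SD, n = 4 each), a log2 fold change of 1.57 ± 0.35 with a 95% interval of 0.78 to 2.36 (edgeR adjusted p = 0.0752). Tap1 averaged 404 ± 77.1 CPM in cDC1 and 189 ± 50.2 CPM in cDC2 (SD, n = 4 each), at 1.12 ± 0.28 (edgeR adjusted p = 0.113). Neither passed the threshold in edgeR. Tapbp, which encodes the peptide-loading chaperone tapasin, stood at 290 and 399 CPM in EGFP-positive cDC1, 246 and 302 CPM in EGFP-negative cDC1, 255 and 100.3 CPM in EGFP-positive cDC2 and 334 and 218 CPM in EGFP-negative cDC2. Its subsets overlapped, at a log2 fold change of 0.47 ± 0.37 (edgeR adjusted p = 0.694).

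Among EGFP-positive cells alone the distance between the subsets in Tap2 was 2.23 ± 0.36 (edgeR adjusted p = 0.0646) and in Tap1 1.57 ± 0.31 (edgeR adjusted p = 0.0969). Among EGFP-negative cells it was 0.90 ± 0.35 in Tap2 (edgeR adjusted p = 0.475) and 0.67 ± 0.30 in Tap1 (edgeR adjusted p = 0.529). No member passed the threshold among EGFP-positive cells, where 0.228% of all genes did (0.114% higher and 0.114% lower), nor among EGFP-negative cells, where 0.36% did (0.114% higher and 0.246% lower). At an unadjusted p under 0.05 there were 3 and 4 members there, against 15.9% and 9.58% of all genes. Without replicate 1 of EGFP-positive cDC1, Tap1, Tap2 and Psmb9 passed among EGFP-positive cells, and without its replicate 2, B2m, Tap1 and Tap2 did. Each such omission leaves 1 library in that group, which is then assumed to vary like the other groups. Without replicate 1, 847 genes of the table passed in place of 26, and without replicate 2, 1273 did. The count was 13 without replicate 1 of EGFP-positive cDC2, 1 without its replicate 2, and 1 on leaving out either EGFP-negative cDC2 library. Among EGFP-negative cells Psmb9 passed on leaving out either EGFP-positive cDC1 library, when 465 (without replicate 1) and 413 (without replicate 2) genes of the table passed in place of 41. On leaving out 1 of the 4 EGFP-negative libraries, 1 to 4 genes passed. DESeq2 called 1586 of 11394 genes among EGFP-positive cells, with Tap1, Tap2 and Psmb9 among them. Among EGFP-negative cells it called 838, with Psmb9 as the only member. With 2 libraries a side, 5 members were higher in cDC1 without overlap among EGFP-positive cells (13.7% of all genes) and 1 lower (33.2%). Among EGFP-negative cells 4 were higher (21.9%) and 4 lower (26.5%).

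The immunoproteasome held the member that passed the test. Psmb9 encodes the inducible subunit that takes the place of Psmb6, and Psmb8 the one that takes the place of Psmb5. Psmb9 stood at 351 and 456 CPM in EGFP-positive cDC1, 701 and 567 CPM in EGFP-negative cDC1, 155 and 80.0 CPM in EGFP-positive cDC2 and 193 and 143 CPM in EGFP-negative cDC2. The lowest cDC1 library was above the highest cDC2 library, and within each subset the EGFP-negative mean was the higher one. Psmb9 averaged 519 ± 150.1 CPM in cDC1 and 143 ± 46.8 CPM in cDC2 (SD, n = 4 each), a log2 fold change of 1.85 ± 0.29 with a 95% interval of 1.19 to 2.51 (edgeR adjusted p = 0.0190), a level 3.60-fold higher in cDC1. The call was kept in 13 of 17 alternative fits, with adjusted p from 1.11e-06 to 0.0890 over all of them, and was lost on leaving out any 1 of the 4 EGFP-negative libraries (adjusted p 0.0742 and 0.0542 without replicates 1 and 2 of EGFP-negative cDC1, 0.0555 and 0.0890 without those of EGFP-negative cDC2). Within EGFP-positive cells the difference was 1.78 ± 0.40 (edgeR adjusted p = 0.122) and within EGFP-negative cells 1.92 ± 0.40 (edgeR adjusted p = 0.142).

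Psmb8 stood at 682 and 1389 CPM in EGFP-positive cDC1, 1994 and 1359 CPM in EGFP-negative cDC1, 642 and 287 CPM in EGFP-positive cDC2 and 879 and 610.0 CPM in EGFP-negative cDC2. Replicate 1 of EGFP-positive cDC1 fell among the cDC2 values and the other 3 cDC1 libraries were above all of them. Its averages were 1356 ± 536 CPM in cDC1 and 605 ± 243 CPM in cDC2 (SD, n = 4 each), a log2 fold change of 1.16 ± 0.35 (edgeR adjusted p = 0.190).

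Tap1 and Psmb9 are neighbours on chromosome 17, transcribed away from each other, Tap1 at chr17:34187553-34197225 on the plus strand and Psmb9 at chr17:34181987-34187764 on the minus strand (GENCODE M21, GRCm38). The segment between their RefSeq starts is shown because both genes separated the subsets without overlap. It is 225 bases long, at chr17:34187331-34187555, within the bounds that GENCODE M21 gives Psmb9 and reaching into those of Tap1. It is written on the strand of Tap1, with the CCAAT match, at bases 4 to 8 from the Psmb9 side, in capitals. It held no match to the response element core, the NF-kB type motif, TGACGC or the GAS motif (TTC, any 3 bases, GAA; 7.02% of windows).

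Psmb9-Tap1: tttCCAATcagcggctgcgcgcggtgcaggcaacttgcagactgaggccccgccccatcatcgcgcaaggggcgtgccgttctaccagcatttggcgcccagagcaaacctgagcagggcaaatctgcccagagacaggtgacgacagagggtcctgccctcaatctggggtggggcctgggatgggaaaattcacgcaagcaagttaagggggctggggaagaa

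Exons of the pair overlap by 212 bases on opposite strands in GENCODE M21 (3.87% of the exon bases of Tap1 and 5.79% of those of Psmb9), and whether the counting used strand is not given in the sources used here. Reads from this overlap cannot be assigned to either gene with certainty. Of the 10 members, 8 matched a RefSeq promoter window, and Tap2 and Nlrc5 did not.

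**Figure D2:**
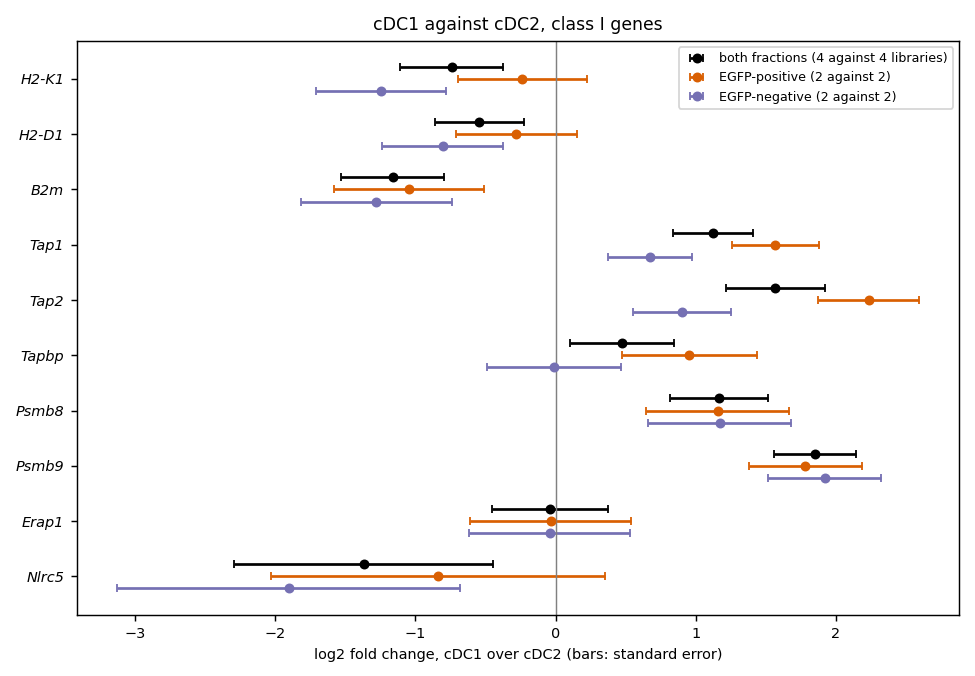
Log2 fold change of each member in cDC1 over cDC2 (x axis), with bars for the standard error, over both fractions (4 against 4 libraries) and within the EGFP-positive and EGFP-negative fractions (2 against 2). Tap1, Tap2, Psmb8 and Psmb9 lie to the right of 0 in all 3 comparisons and B2m to the left, and only Psmb9 over both fractions, at 1.85 ± 0.29, passed the threshold.

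Ratios within a library do not depend on how libraries are scaled to each other, so the steps of the pathway were also set against each other inside each library, per kilobase of exon. These ratios were chosen with the values in view and carry no test, and their size depends on the exon lengths used. Tap1 plus Tap2 amounted to 16.3% and 10.3% of H2-K1 plus H2-D1 in EGFP-positive cDC1, 13.3% and 13.9% in EGFP-negative cDC1, 2.43% and 3.38% in EGFP-positive cDC2 and 3.77% and 3.88% in EGFP-negative cDC2. The subsets were far apart and the fractions were not: the means were 13.5% ± 2.46 in cDC1 and 3.37% ± 0.658 in cDC2 (SD, n = 4 each). Psmb8 plus Psmb9 amounted to 27.3% to 73.4% of the heavy chains in cDC1 and 8.82% to 14.1% in cDC2, again without overlap. Within cDC1 this second ratio was 32.6% and 27.3% in EGFP-positive libraries and 73.4% and 64.3% in EGFP-negative libraries. The heavy chains relative to B2m stood at 0.150 to 0.246 in cDC1 and 0.106 to 0.135 in cDC2, and Tap1 relative to Tap2 at 0.813 to 1.12 in cDC1 and 1.19 to 1.55 in cDC2.

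The inducible subunits were next read against the constitutive ones they replace. Psmb9 over Psmb6 was 0.563 and 0.859 in EGFP-positive cDC1, 1.19 and 1.16 in EGFP-negative cDC1, 0.287 and 0.188 in EGFP-positive cDC2 and 0.414 and 0.357 in EGFP-negative cDC2. All cDC1 libraries were above all cDC2 libraries, and in each subset both EGFP-negative libraries were above both EGFP-positive ones. Psmb8 over Psmb5 ranged from 1.84 to 3.64 in cDC1 and from 0.467 to 1.96 in cDC2, where the subsets overlapped through 1 library of each. Psmb10, the third inducible subunit, over its counterpart Psmb7 ranged from 1.32 to 3.44 in cDC1 and from 1.31 to 4.19 in cDC2. The constitutive genes Psmb5 (-0.20 ± 0.29, edgeR adjusted p = 0.859), Psmb6 (0.29 ± 0.23, adjusted p = 0.708) and Psmb7 (0.36 ± 0.29, adjusted p = 0.706) missed the threshold between the subsets. Psmb10 gave -0.10 ± 0.41 (edgeR adjusted p = 0.966), a sign that changed in 3 of 17 alternatives.

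**Figure D3:**
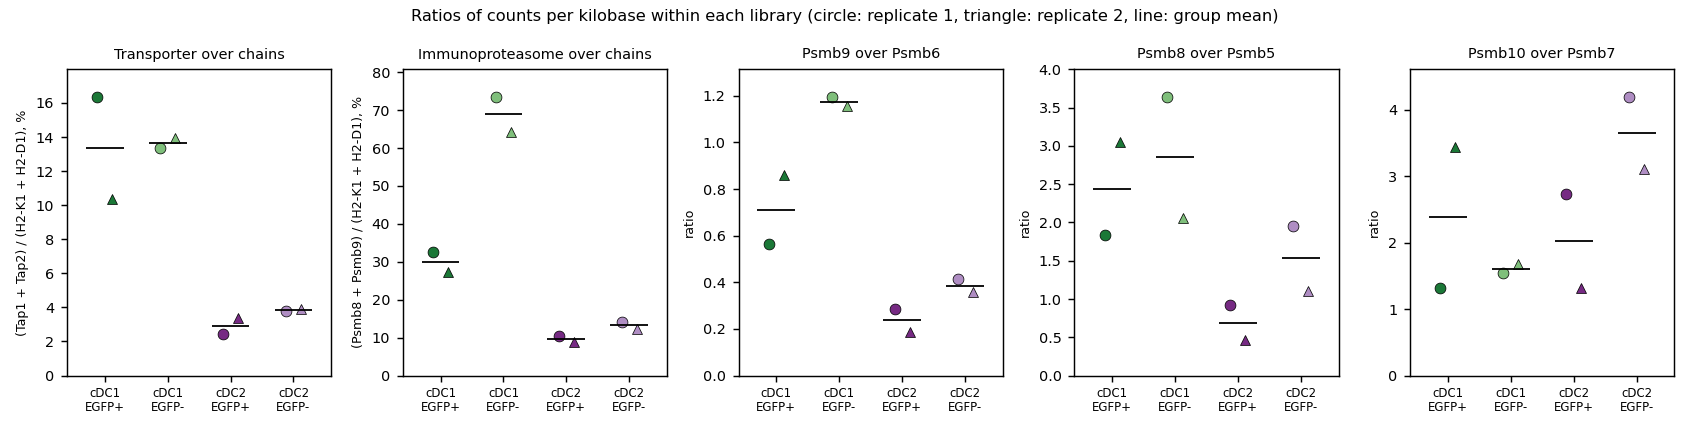
Ratios of counts per kilobase of exon inside each library (y axes, linear, from 0; percent in the first pair of panels), with the 4 groups along the x axes and a line at each group mean of 2 libraries. Transporter over heavy chains was 10.3% to 16.3% in cDC1 and 2.43% to 3.88% in cDC2, whereas Psmb10 over Psmb7 overlapped between the subsets.

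Erap1 trims peptides to the length that class I accepts, and its libraries were ordered by fraction. It stood at 13.6 and 32.4 CPM in EGFP-positive cDC1, 43.9 and 59.1 CPM in EGFP-negative cDC1, 27.4 and 19.6 CPM in EGFP-positive cDC2 and 61.3 and 44.7 CPM in EGFP-negative cDC2. All 4 EGFP-positive libraries were below all 4 EGFP-negative libraries, a pattern that 2% of all genes tested showed in this direction and 1 of 10 members. No member was higher in EGFP-positive cells without overlap (0.965% of all genes). Erap1 averaged 23.2 ± 8.32 CPM in EGFP-positive cells and 52.3 ± 9.27 CPM in EGFP-negative cells (SD, n = 4 each), a log2 fold change of -1.17 ± 0.42 over both subsets and not past the threshold (edgeR adjusted p = 0.951). The estimate was -1.17 ± 0.58 within cDC1 and -1.17 ± 0.58 within cDC2 (edgeR adjusted p = 0.412 and 1). Between the subsets it was -0.038 ± 0.41 (edgeR adjusted p = 0.990). In GENCODE M21, 11.5% of the exon bases of Erap1 overlap Cast on the opposite strand, so some of its counts are uncertain. Larger shares overlap opposite-strand genes that have no row of counts, in Tapbp (24.9%, Gm19412), Psmb8 (14.7%, Gm20496) and Tap2 (14.1%, Gm15821). Tapbp also shares 4.11% with Zbtb22 on its own strand, so counts of these members are uncertain as well.

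Nlrc5, the class I transactivator, was the lowest member. It stood at 4.68 and 20.003 CPM in EGFP-positive cDC1, 3.69 and 1.40 CPM in EGFP-negative cDC1, 26.3 and 17.8 CPM in EGFP-positive cDC2 and 10.7 and 8.37 CPM in EGFP-negative cDC2. Within each subset both EGFP-positive libraries were above both EGFP-negative libraries, as for 11.5% of all genes in cDC1 and 22.6% in cDC2. The margin was small in cDC1 replicate 1. The log2 fold change of EGFP-positive over EGFP-negative cells was 2.27 ± 1.24 within cDC1 (edgeR adjusted p = 0.429), 1.21 ± 1.20 within cDC2 (edgeR adjusted p = 1) and 1.74 ± 0.93 over both (edgeR adjusted p = 1). Between the subsets it was -1.37 ± 0.92 (edgeR adjusted p = 0.614).

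The fractions were compared for the whole set to ask whether dendritic cells that hold tumour-derived EGFP differ in class I genes. With edgeR, 0 of 10 members passed the threshold within cDC1, within cDC2 or over both subsets, and 0% of all genes did in each of these comparisons. At an unadjusted p under 0.05 there were 0, 0 and 1 members, the 1 being Erap1, against 12.7%, 2.63% and 5.22% of all genes (1452, 300 and 595 genes). DESeq2 called 1325, 110 and 184 genes in these comparisons and 0 members. Within cDC1, edgeR called 763 genes without replicate 1 of EGFP-positive cDC1 and 1050 without its replicate 2, again with 0 members. Those counts set 1 EGFP-positive library against 2 and take their spread from the other groups. The members' adjusted p-values lay between 0.412 and 0.889 within cDC1, at 1 within cDC2 and between 0.951 and 1 over both.

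Within cDC1, 7 of 10 members had a positive log2 fold change for EGFP-positive over EGFP-negative cells, with a median of 0.31 beside -0.04 for all genes. Within cDC2, 2 of 10 did, with a median of -0.57 beside 0.08 for all genes. These counts depended on single libraries. On leaving out 1 library, H2-K1 (to -0.021), H2-D1 (to -0.14) and B2m (to -0.73) could turn negative within cDC1. Within cDC2, H2-K1 (to 0.043) and H2-D1 (to 0.29) could turn positive and B2m negative (to -0.49). The other members kept their sign in all alternatives for both subsets. Without overlap, Tap2 and Nlrc5 were higher (11.5% of all genes) and Psmb9 and Erap1 lower (24% of all genes) in EGFP-positive cDC1. In EGFP-positive cDC2, Nlrc5 was higher (22.6% of all genes) and Tap1, Tap2 and Erap1 were lower (19.2% of all genes). Tap2 thus stood on opposite sides in the subsets, at 0.56 ± 0.35 in cDC1 (edgeR adjusted p = 0.474) and -0.77 ± 0.35 in cDC2 (edgeR adjusted p = 1). The difference between these effects, the interaction, was 1.33 ± 0.49 for Tap2 (edgeR adjusted p = 0.431) and 0.89 ± 0.43 for Tap1 (edgeR adjusted p = 0.498). No gene of the table passed for the interaction in edgeR (0% of 11394 genes; 1180 at an unadjusted p under 0.05), DESeq2 called 714 genes, and edgeR 515 and 668 without replicate 1 or 2 of EGFP-positive cDC1 (again 1 library left in that group), with 0 of 10 members among any of these. Psmb9 gave -0.65 ± 0.39 within cDC1 and -0.58 ± 0.28 over both subsets (edgeR adjusted p = 0.466 and 0.975), and Psmb8 -0.69 ± 0.35 over both (edgeR adjusted p = 0.975). Tap1 was -0.62 ± 0.30 in EGFP-positive cDC2 (edgeR adjusted p = 1).

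**Figure D4:**
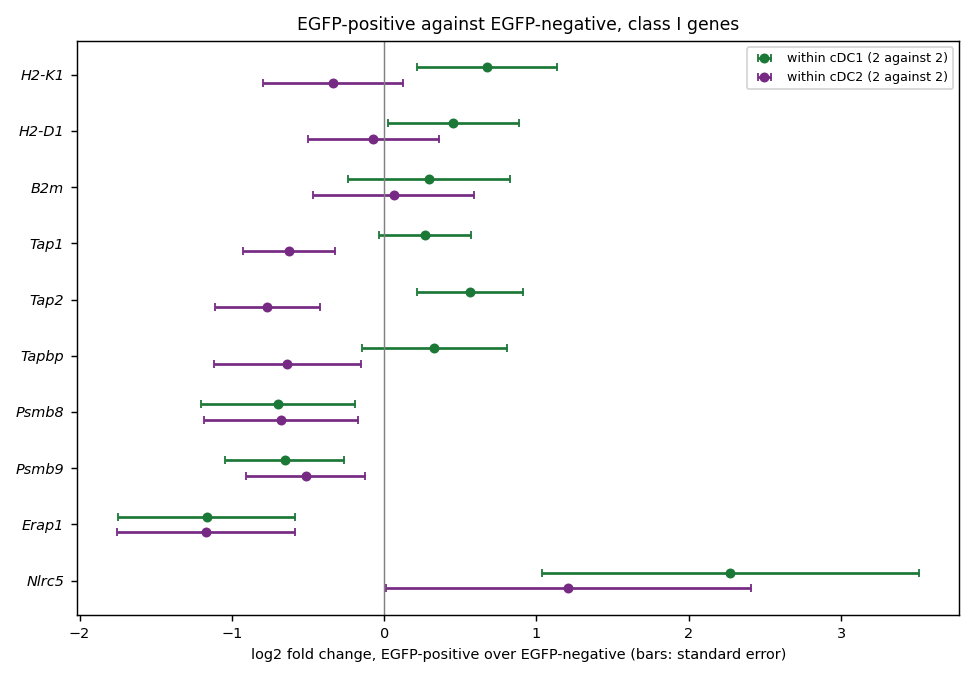
Log2 fold change of each member in EGFP-positive over EGFP-negative cells (x axis), with bars for the standard error, within cDC1 and within cDC2 (2 against 2 libraries each). Erap1 lies near -1.17 in both subsets and Tap2 lies on opposite sides of 0, with 0 of 10 members past the threshold in either subset.

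The replicates of EGFP-positive cDC1 were far apart in their marker genes. Replicate 1 held 390 CPM of macrophage markers and 807 CPM of 6 stromal marker genes, against 11596 CPM and 22.5 CPM in replicate 2. The largest parts of the 11596 CPM were Lyz2 (8773 CPM), Apoe (1543) and Csf1r (401), with C1qa at 4.21 and Pf4 at 0.421. Adgre1 went the other way, at 41.7 CPM in replicate 1 and 0.421 in replicate 2. Sparc made 674 of the 807 CPM, and Pecam1 went the other way (0 and 19.4 CPM). Replicate 2 was the highest cDC1 library for H2-K1, H2-D1, B2m, Tap1, Tap2, Tapbp and Nlrc5. Replicate 1 was the lowest for H2-D1, B2m, Psmb8, Psmb9 and Erap1. The part of these markers in the member values was not tested. The median absolute log2 difference between replicates over the 10 members was 1.02 there, beside 1.14 over 5709 genes. It was 0.33 beside 0.52 in EGFP-negative cDC1, 0.81 beside 0.50 in EGFP-positive cDC2 and 0.36 beside 0.40 in EGFP-negative cDC2. Marker genes of MC38 or epithelial cells summed to at most 20.8 CPM in any library.

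Further genes of the pathway were read from 7 lists. Among 14 interferon-gamma induced genes tested of 15 listed, 1 was higher and 1 lower in cDC1 over both fractions, where 0.816% of all genes tested were higher and 0.5% lower. The GTPase gene Tgtp1 was higher, at 66.2 and 302 CPM in EGFP-positive cDC1, 116 and 58.4 CPM in EGFP-negative cDC1, 8.43 and 2.92 CPM in EGFP-positive cDC2 and 12.3 and 10.6 CPM in EGFP-negative cDC2 (log2 fold change 3.97 ± 0.71, edgeR adjusted p = 0.0334). The chemokine gene Cxcl9 was lower, at 108 and 137 CPM in EGFP-positive cDC1, 216 and 173 CPM in EGFP-negative cDC1, 719 and 287 CPM in EGFP-positive cDC2 and 681 and 498 CPM in EGFP-negative cDC2 (-1.82 ± 0.34, edgeR adjusted p = 0.0359). Each was called in 10 of 17 alternatives, with adjusted p from 1.22e-06 to 0.115 for Tgtp1 and from 0.000124 to 0.126 for Cxcl9. Both calls were lost with a replicate block (adjusted p 0.0739 for Tgtp1 and 0.0702 for Cxcl9), without robust estimation (0.0513 and 0.0564) and on leaving out single libraries. Those were replicate 1 of EGFP-negative cDC1, replicate 1 of EGFP-positive cDC2 and either EGFP-negative cDC2 library for both genes, replicate 2 of EGFP-positive cDC2 for Tgtp1, and replicate 2 of EGFP-negative cDC1 for Cxcl9 (adjusted p 0.0624 to 0.126). The list as a whole had 2 positive and 12 negative log2 fold changes, a median of -0.91, beside 41.1% positive and a median of -0.28 for all genes tested.

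In the other 6 lists 0 genes passed in edgeR in any of the 7 comparisons. Between the subsets over both fractions, DESeq2 called Pdia3, Tapbpl, Psme1 and Cd1d1 of the genes named here, and voom called Pdia3, Tapbpl, Psme1 and Pomp. Of all 11394 genes, DESeq2 called 1160 there and voom 846. Of 12 peptide loading and chaperone genes, 7 had a positive and 5 a negative log2 fold change between cDC1 and cDC2, with 2 at an unadjusted p under 0.05. Pdia3, the disulfide isomerase of the loading complex, was at 0.95 ± 0.23 (edgeR adjusted p = 0.0979) and the tapasin relative Tapbpl at 1.31 ± 0.40 (edgeR adjusted p = 0.193). Of 5 partners of the inducible proteasome, 3 were positive, led by the activator subunit Psme1 (1.12 ± 0.34, edgeR adjusted p = 0.190) and the assembly factor Pomp (0.84 ± 0.31, adjusted p = 0.280). The 14 genes of the constitutive core had 11 positive values and a median of 0.14. Of 22 regulators, 12 were positive with a median of 0.06, and Jak2 (1.27 ± 0.53, edgeR adjusted p = 0.332) and Irf9 (1.07 ± 0.48, adjusted p = 0.376) had the smallest p. Of 6 cytosolic peptidases, 1 was positive, and Tpp2 gave -0.97 ± 0.43 (edgeR adjusted p = 0.369). Of 9 further class I chains tested, 2 were positive, and the CD1 gene Cd1d1 gave -3.42 ± 1.43 (edgeR adjusted p = 0.335).

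For EGFP-positive over EGFP-negative cells over both subsets, 0 of the list genes passed in edgeR, and those of smallest p included Blmh, a cytosolic peptidase (-1.33 ± 0.49), Ifngr1, a chain of the interferon-gamma receptor (-1.49 ± 0.63), and Pdia3 (-0.55 ± 0.23), each at an edgeR adjusted p of 0.951. Cd274, which encodes PD-L1, gave 0.96 ± 0.46 (edgeR adjusted p = 0.975). Irf1, a transcription factor that acts on class I promoters, was picked out after its values were seen. It stood at 375 and 462 CPM in EGFP-positive cDC1, 139 and 74.8 CPM in EGFP-negative cDC1, 261 and 97.5 CPM in EGFP-positive cDC2 and 536 and 159.5 CPM in EGFP-negative cDC2. Both EGFP-positive cDC1 libraries were above both EGFP-negative cDC1 libraries, as for 11.5% of all genes tested, and the cDC2 fractions overlapped. Its log2 fold change within cDC1 was 1.97 ± 0.69 (edgeR adjusted p = 0.322) and its interaction 2.93 ± 0.97 (edgeR adjusted p = 0.417), so neither passed.

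Likeness between profiles was measured as the root mean square difference of centred log2(CPM + 1) values over the 8 libraries. Tap1 and Tap2 were each other's nearest member (0.28), as were Psmb8 and Psmb9 (0.41), and B2m was nearest to H2-K1 (0.35). Nlrc5 and Erap1 stood apart, at 0.71 from their nearest members, B2m and Tapbp. Of 6056 genes with a mean of at least 10 CPM, those nearest to the mean profile of the members were Tmbim6 (0.12), Arpc4 (0.15), Chst12 (0.15), Mrps7 (0.17) and the non-classical class I gene H2-T23 (0.18). H2-T23, which encodes Qa-1, stood at 324 and 713 CPM in EGFP-positive cDC1, 537 and 358 CPM in EGFP-negative cDC1, 573 and 229 CPM in EGFP-positive cDC2 and 513 and 345 CPM in EGFP-negative cDC2. Its subsets overlapped, at 0.22 ± 0.38 (edgeR adjusted p = 0.890).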

How the data were processed

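RNA from 8 libraries of sorted dendritic cells was sequenced after full-length cDNA synthesis and KAPA library preparation, per the labels' protocols. The authors deposited raw read counts per gene symbol, whole numbers for 24369 symbols in 8 columns, which were matched to samples by their titles. The submitters' processing notes name Trimmomatic 0.39, STAR 2.7.5c, Cufflinks 2.2.1 and the mm10 build. Which read counter, annotation and strand setting were used is not given in the sources used here.

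Testing used edgeR 4.0.16 under R 4.3.3 (11394 genes kept by filterByExpr on the groups, TMM scaling, robust glmQLFit, glmQLFTest, Benjamini-Hochberg over all genes, threshold 0.05). A model with 1 mean per group gave the comparisons within a subset or fraction and the interaction, and an additive model of subset and EGFP gave those over 4 libraries a side. Standard errors are the absolute log2 fold change over the root of F, and 95% intervals from the fit's degrees of freedom. Every replicate pair differed by more than counting noise. A count of 3 corresponds to 0.131 to 0.211 CPM in a library, and such limits cover counting error only. Exon lengths and coordinates are from GENCODE M21 and promoter windows from RefSeq, both GRCm38 (mm10). Motifs were searched on both strands in the 250 bases before each start. The steps were tested on simulated data.

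Alternatives were DESeq2 1.42.0, limma 3.58.1 voom with library quality weights, RLE scaling, no filter, a filter of 10 CPM in 2 libraries, no robust estimation, the compared libraries alone, the average of the 4-group model, a replicate block, removal of Rn45s and leaving out each library. The members and lists were chosen with earlier results of these data known. All 10 members are described. In each pathway list, genes past the threshold in any comparison are named, and among those with a mean of at least 5 CPM, up to 3 of smallest p between subsets and up to 3 between fractions could be named. Psmb5, Psmb6, Psmb7 and Psmb10 were always read. Marker genes, H2-T23 and Irf1 stand outside that rule, H2-T23 being 1 of the 5 genes nearest to the members' mean profile.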

Additional observations from a re-analysis of the deposited data

How the results depend on the processing

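Psmb9 kept its direction in all 17 alternatives, at log2 fold changes of 1.70 to 2.11. For 37 member fold changes listed for this check, 633 values under alternatives held 4 changes of sign. All were for Erap1 between the subsets (-0.33 to 0.16 on leaving out single libraries). No other member fold change given in the text with its standard error changed sign. Over all 70 member fold changes, plotted ones included, 63 of 1190 values changed sign, 26 of them in the interaction. Between the subsets, single-library omissions also turned the sign of Psmb10 (-0.56 to 0.14) and H2-T23 (-0.086 and -0.024 without replicate 2 of EGFP-positive cDC1 or cDC2, otherwise up to 0.51). The cause was not tested.

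Counts of genes called moved most with the tool. For EGFP in cDC1, DESeq2 gave 1325, no filter 57 and single omissions 0 to 1050. EGFP in cDC2 gave 110 (DESeq2) and 2 (voom), and EGFP over both subsets 184 and 4. For subsets in EGFP-positive cells the values were 1586 with 3 members (DESeq2), 153 with 1 (no filter), 12 (no robust estimation), 11 (voom), 0 (compared libraries) and 1 to 1273 with 0 to 3 members on single omissions. In EGFP-negative cells they were 838 with 1 member (DESeq2), 112 (no filter), 25 (no robust estimation), 471 with 1 (voom), 292 with 1 (compared libraries) and 1 to 465 with 0 to 1 on single omissions. Over both fractions they were 1160 with 4 members (DESeq2), 236 with 2 (no filter), 99 (no robust estimation), 846 with 5 (voom), 275 with 3 (4-group average) and 50 to 277 with 0 to 2 on single omissions. The interaction gave 714 (DESeq2), 29 (no filter) and 0 to 668 on single omissions.

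Same-numbered replicates, which share a code in their titles, deviated together at correlations of -0.27 to 0.08. The numbers were not read as pairing samples, though whether these replicates share a source is not given. The replicate block gave 0 genes in EGFP-positive cells (26 without it), 3 in EGFP-negative cells (41) and 82 over both fractions (150). Over both fractions Psmb9 was still called and Tgtp1 and Cxcl9 were not. Crossing the numbers in EGFP-positive cDC1, an alternative added after seeing the data, gave 7 genes in EGFP-positive cells. RLE scaling moved the median of all genes by 0.11 in EGFP-positive cells (to -0.20) and the interaction's to -0.06. The lowest level of any member in a library, 1.40 CPM of Nlrc5, stood above the 0.131 to 0.211 CPM that 3 counts make.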
